A study of Mus musculus with 32 samples.

Results

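Regions called as Ikaros (IKZF1) peaks in every Ikaros library were examined in the mouse pre-B cell line B3. The peaks of the 8 Ikaros lists were merged where they overlapped or touched, which gave 23844 regions, and the 2305 regions that overlapped a peak in all 8 lists (9.67%) were selected on those calls. The cells carried a retrovirally transduced HA-tagged Ikaros-ERt2 fusion, which was present in all groups. The 0 h group was untreated, and the other groups had 500 nM 4-hydroxytamoxifen (4-OHT) for 30 min, 1 h or 2 h. At each time HA-Ikaros, CHD4 and histone H3K27 acetylation (H3K27ac) were mapped by ChIP-seq in 2 replicates, so each target had 8 peak lists. By the study's methods the transduced cells were sorted for GFP, and a clone is not described. The labels do not say that replicates came from separate cultures, so the p-values measure the spread between these libraries, which may be technical.

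Ikaros is a zinc finger transcription factor of lymphoid cells that binds DNA at GGGAA and related sequences and restrains genes of the cycling pre-B cell. The ERt2 domain holds a fusion protein in the cytoplasm until 4-OHT releases it into the nucleus. CHD4 is the ATP-dependent remodelling subunit of NuRD, a complex that also carries the histone deacetylases HDAC1 and HDAC2. H3K27ac marks active promoters and enhancers. Because a region had to be called at 0 h, all of these regions had an anti-HA peak call before 4-OHT was added. Cells without the HA fusion were not analysed here, so how far such a call, for example in satellite repeats, is HA-Ikaros was not tested.

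The sequences at the Ikaros summits are shown to let the core words be seen at the strongest and at the most changed regions. Each is 101 bases on the plus strand of the RefSeq GRCm38 (mm10) genome, centred on the median summit of the 8 lists, with the core words GGAA and GGGA and their reverse complements TTCC and TCCC in capitals. The first 6 are the regions of highest mean Ikaros rank whose windows meet no untranslated exon. The last 3 were taken for a large decrease of H3K27ac rank (Gas6), a large increase of H3K27ac rank (Srgap3) and a large increase of CHD4 rank (Def6).
Snx29 intron, chr16:11686549-11686649: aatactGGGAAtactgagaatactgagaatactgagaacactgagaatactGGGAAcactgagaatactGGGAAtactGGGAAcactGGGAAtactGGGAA
near Dusp2, chr2:127335341-127335441: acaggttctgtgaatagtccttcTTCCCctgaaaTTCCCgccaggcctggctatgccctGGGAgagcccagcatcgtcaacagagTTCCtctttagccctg
near Rcc2, chr4:140684314-140684414: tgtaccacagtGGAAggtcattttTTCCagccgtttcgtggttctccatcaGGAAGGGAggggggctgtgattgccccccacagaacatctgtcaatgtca
near Pa2g4, chr10:128566119-128566219: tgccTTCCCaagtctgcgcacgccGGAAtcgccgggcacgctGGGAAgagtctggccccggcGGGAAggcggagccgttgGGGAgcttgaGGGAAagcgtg
near Ints1, chr5:139777213-139777313: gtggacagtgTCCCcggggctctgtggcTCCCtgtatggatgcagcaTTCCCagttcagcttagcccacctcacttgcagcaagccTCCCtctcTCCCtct
near Ttc9c, chr19:8819354-8819454: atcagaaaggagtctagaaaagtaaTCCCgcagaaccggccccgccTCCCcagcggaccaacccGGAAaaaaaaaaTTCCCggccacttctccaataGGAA
Gas6 intron, chr8:13490428-13490528: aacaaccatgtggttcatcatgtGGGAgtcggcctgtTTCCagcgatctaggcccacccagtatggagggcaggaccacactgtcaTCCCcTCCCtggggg
Srgap3 intron, chr6:112852368-112852468: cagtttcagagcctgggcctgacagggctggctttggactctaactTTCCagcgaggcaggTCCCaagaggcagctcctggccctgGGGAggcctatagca
near Def6, chr17:28207652-28207752: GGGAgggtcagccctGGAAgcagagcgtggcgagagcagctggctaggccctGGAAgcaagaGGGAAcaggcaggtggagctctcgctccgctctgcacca

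The region with the highest mean Ikaros rank lay in an intron of Snx29 (chr16:11685258-11688996), and its summit sequence repeated GGGAA, with 12 core words in the 101 bases. Its Ikaros fold enrichment, the ratio of pileup to local background, was 26.0 and 40.4 at 0 h, 13.8 and 18.1 at 30 min, 15.6 and 14.8 at 1 h and 11.4 and 15.4 at 2 h. Folds of different libraries rest on different backgrounds, so comparisons used the percentile of a peak's fold within its own list, from 0 for the lowest to 100 for the highest. By that rank the Snx29 region lay between 99.7 and 100 in every list. CHD4 was called there in all 8 lists, with folds between 3.81 and 6.63, and H3K27ac in none.

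The other 7 regions of highest Ikaros rank lay nearer to a TSS and carried H3K27ac in all 8 lists. The region 768 bp from the TSS of Dusp2 (chr2:127334378-127336275), a MAP kinase phosphatase gene, had CHD4 in all 8 lists, as did those near Ints1 (chr5:139776380-139777909), an Integrator subunit gene, and Rcc2 (chr4:140683480-140685351). The summits at Chmp5 (chr4:40948153-40949221), an ESCRT-III subunit gene, Pa2g4 (chr10:128564723-128567219), Ttc9c (chr19:8818524-8820058) and Elp5 (chr11:69980020-69982075), an Elongator subunit gene, lay within 182 bp of a TSS. CHD4 was called in 2 lists at Chmp5, 2 at Pa2g4, 3 at Ttc9c and 5 at Elp5. At Pa2g4 the Ikaros fold was 43.7 and 45.9 at 0 h and 11.4 and 15.0 at 2 h, and the sequence held 10 core words. By percentile, the measure used for comparisons, this region was at 100 and 100 at 0 h and 99.8 and 99.9 at 2 h. Among these 8 regions the number of CHD4 lists thus ran from 2 to 8, and H3K27ac was in all lists or, at Snx29, in none.

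The selected regions were wide and of mixed location. Their median width after merging was 1593 bp (quartiles 1200 and 2159 bp), compared with 866 bp in the 10051 other replicated regions, which were called in both replicates of at least 1 time. The summit lay within 1 kb of an annotated TSS (a promoter region) in 1037 of 2305 (45.0%), between the 43.5% of all merged regions and the 48.0% of other replicated regions, and below the 49.8% of regions in 7 of 8 lists. By the summit, 947 regions lay in introns, 875 between genes, 261 in untranslated exons, 164 in non-coding exons and 58 in coding exons. In 8 regions (0.347%) at least 80% of the 500 bp around the summit was repeat-masked, and 5 of these were at the start of chromosome 9.

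The selection turned on the shortest list. Of 1888 regions called in 7 of 8 lists, 995 (52.7%) were missing from 30 min replicate 2, which had 5373 peaks against up to 14874 in the other lists, and 394 from 0 h replicate 1. If 30 min replicate 2 were not required there would be 3300 regions. Coverage recovered from the peak statistics was 1.98 fragments per base in 30 min replicate 2 and up to 3.59 in 0 h replicate 1, and 3.75 to 4.34 in the H3K27ac libraries. The 100 regions just inside the limit had a smallest −log10 q between 1.32 and 1.76 and a median Ikaros fold of 5.08. The regions in 7 of 8 lists, just outside, had a median fold of 5.20, and CHD4 in both 2 h lists at 23.0%, as did 23% of the 100.

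The pre-B identity of the cells was checked by H3K27ac peaks at promoters of marker genes. Of 9 pre-B markers 8 had a peak in all 8 lists, and Rag1 in 7. The 4 T cell markers, Alb and Neurod1 had none in any list. Of 4 myeloid markers 3 had none and Lyz2 had a peak in 1 list, and of 3 erythroid markers Klf1 and Hbb-bt had a peak in all 8 lists and Gata1 in none.

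Ikaros values chose these regions and are given as a description, with no test. The median Ikaros percentile was 69.5 and 74.0 at 0 h, 78.9 and 65.7 at 30 min, 82.8 and 83.5 at 1 h and 82.4 and 81.5 at 2 h. The 1 h and 2 h values were above both 0 h values, and the 30 min values lay on either side of them. The lists had 7822 and 9527 peaks at 0 h and 14225 and 14179 at 2 h, so the same regions were equal to 29.5% and 24.2% of the lists at 0 h and 16.2% and 16.3% at 2 h. Ikaros peaks at these regions had a median width of 557 and 667 bp at 0 h and 960 and 947 bp at 2 h, and over all peaks of the lists it was 401 and 435 bp at 0 h and 486 and 521 bp at 2 h.

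**Figure D1:**
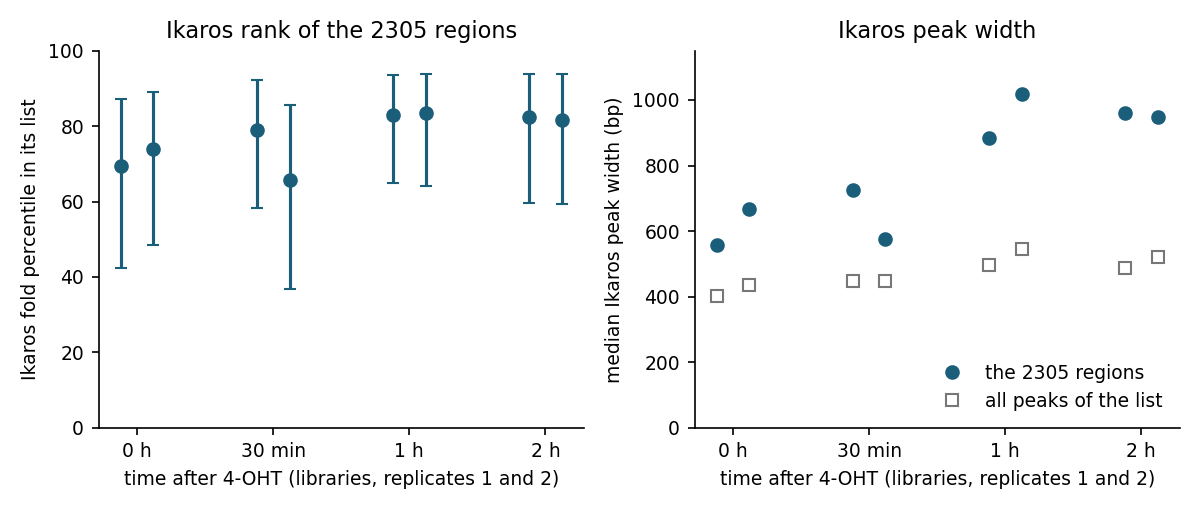
Left, the percentile of the Ikaros fold within each list for the 2305 regions called in all 8 Ikaros lists (points, median; bars, quartiles). Right, the median Ikaros peak width in bp at these regions (filled circles) and over all peaks of the list (open squares). Each point is 1 library, and the 1 h and 2 h libraries have the higher medians.

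The order of the regions was most alike between the 0 h libraries. Across the 2305 regions, Spearman's rho of the Ikaros fold was 0.612 between these libraries, 0.194 to 0.317 over the 12 pairs of a 0 h with a later library and 0.261 to 0.475 over the 15 pairs of later libraries. Replicates of the same later time had a rho of 0.358 to 0.425. Summits lay a median of 52 bp apart between the 0 h libraries, 82 to 133 bp between 0 h and later libraries and 75 to 136 bp among later libraries. The distances between 0 h and later libraries thus lay within the range among later libraries. The 0 h libraries were also deeper, with 3.59 and 3.13 fragments per base against 1.98 to 2.85 later, and the part of depth in these values was not tested.

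CHD4, which the selection did not use, was more frequent at these regions than at other Ikaros regions. A CHD4 peak overlapped the 500 bp around the Ikaros summit at 39.3% and 63.2% of the 2305 regions at 0 h, 60.8% and 52.3% at 30 min, 69.5% and 60% at 1 h and 44.5% and 77.8% at 2 h. At the other replicated regions the share was between 10.8% and 43.5%. It was higher at the 2305 regions in 8 of 8 libraries, by 25.1 to 42.2 percentage points. The mean difference of 34.9 points passed the exact sign-flip permutation test over libraries (two-sided p = 0.00781, Benjamini-Hochberg adjusted p = 0.00781 over 3 tests), the smallest p that 8 libraries allow. The same regions were scored in each library, so this p-value concerns the constancy of the sign over libraries. The other regions were missing from at least 1 Ikaros list by the rule. CHD4 was in both 2 h lists at 23% of the 100 regions just inside the limit and 39.6% of all 2305. The part of Ikaros peak strength in the difference was not tested. The share at the 2305 regions showed no trend with time that passed the exact permutation test (rho = 0.293, p = 0.513, r = 0.308, p = 0.460, adjusted p = 0.716 and 0.710 over 11 trends), and with 1 library left out rho ran from 0.0184 (without 0 h replicate 1) to 0.606 (without 2 h replicate 1). The CHD4 lists held 2488 and 6000 peaks at 0 h and 5523 and 9593 at 2 h, the longer list had the higher share at both times, and CHD4 depth is unknown.

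Counted over lists, 119 regions (5.16%) had CHD4 in none, compared with 45.8% of all merged Ikaros regions, and 370 (16.1%) had it in all 8, compared with 2.17%. CHD4 was called in both 0 h lists at 806 regions (35.0%, all merged regions 7.32%) and in both 2 h lists at 912 (39.6%, all merged regions 11.5%). It was called in both 2 h and neither 0 h list, here termed gained, at 139 regions (6.03%, all merged regions 3.67%), and by the reverse rule lost at 49 (2.13%, all merged regions 1.07%). These shares were near those of regions in 7 of 8 lists (5.67% gained and 2.86% lost) and of other replicated regions (4.97% and 1.78%). With 2 libraries against 2 an exact test cannot go below p = 0.333, so these gains and losses are descriptions.

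Promoter regions had CHD4 less often than distal regions in each library. At the 1268 distal regions CHD4 was called in 53.7% and 78.8% at 0 h and 50.7% and 85.2% at 2 h. At the 1037 promoter regions it was called in 21.8% and 44.2% at 0 h and 36.8% and 68.8% at 2 h. The ratio of promoter to distal share was 0.406 and 0.561 at 0 h, 0.652 and 0.555 at 30 min, 0.759 and 0.658 at 1 h and 0.726 and 0.807 at 2 h. All 8 ratios were below 1, and both 2 h ratios were above both 0 h ratios. Of the 139 regions that gained CHD4, 98 were promoter regions (9.45% of promoter regions) and 41 distal (3.23%), compared with 7.02% and 4.32% at regions in 7 of 8 lists and 5.33% and 4.65% at other replicated regions. The ratio was also higher at 2 h at other replicated regions, where it was 0.390 and 0.481 at 0 h and 0.904 and 0.736 at 2 h.

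**Figure D2:**
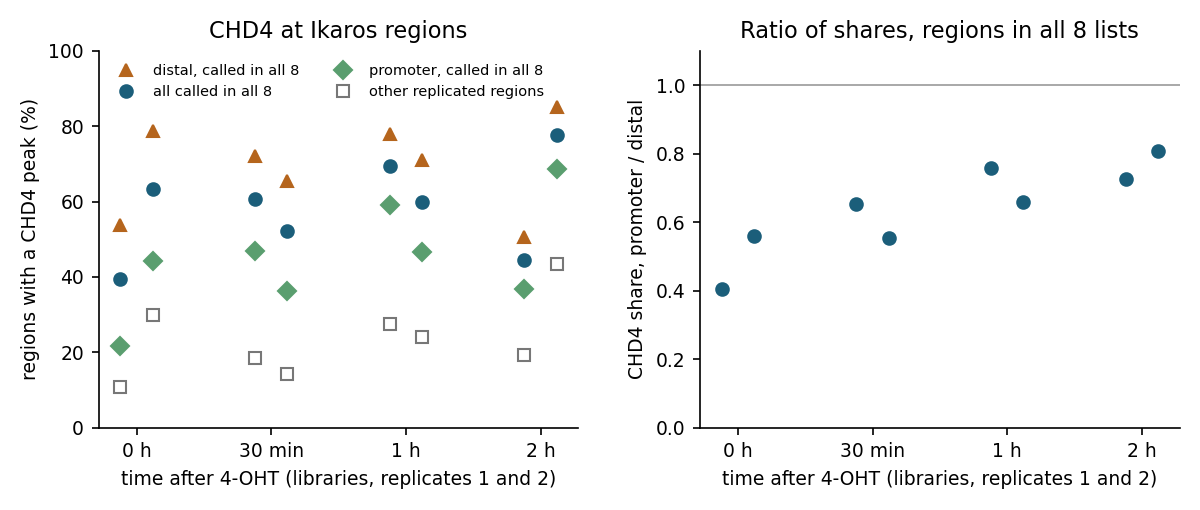
Left, the percentage of Ikaros regions with a CHD4 peak in each library, for regions called in all 8 Ikaros lists (circles), the distal (triangles) and promoter (diamonds) ones among them, and other replicated Ikaros regions (open squares). Right, the ratio of promoter to distal share in the regions called in all 8 lists, with a line at 1. All 8 ratios lie below 1, from 0.406 to 0.807.

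CHD4 also ranked higher at these regions than at the rest of the regions called in all CHD4 lists. Of 723 regions called in all 8 CHD4 lists, 500 overlapped an Ikaros region called in all 8 lists. Their mean CHD4 fold percentile within the 723 was above that of the rest by 10.0 and 10.8 points at 0 h, 14.4 and 13.7 at 30 min, 10.9 and 6.47 at 1 h and 6.06 and 6.90 at 2 h. The mean difference of 9.91 points, positive in 8 of 8 libraries, passed the exact sign-flip permutation test (p = 0.00781, adjusted p = 0.00781). The class most like them, the 60 other replicated regions called in both 0 h Ikaros lists, had a mean percentile of 50.7 at 0 h and 49.7 at 2 h, against 53.2 and 52.0 at the 500, and 54.9 against 53.3 in 0 h replicate 2, and this difference was not tested. The CHD4 rank was lower in both 2 h than in both 0 h lists at 95 of the 500 (19.0%, all 723 regions 18.8%) and higher at 79 (15.8%, all 723 regions 17.7%), shares near the background. Median CHD4 peak width ran from 715 to 1339 bp, and the CHD4 peak centre lay a median of 173 to 280 bp from the Ikaros summit. A wider CHD4 region had more chance to overlap an Ikaros region called in all 8 lists. The part of width in the higher CHD4 rank was not tested. Rank difference, share difference, width and centre distance showed no trend with time that passed the exact permutation test (rho between −0.537 and 0.586, adjusted p between 0.419 and 0.946).

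The 5 regions with the largest increase of CHD4 rank were chosen for it, so their values are a description. The ranks are those of the shared CHD4 region that each overlaps, which can be wider than the window on the Ikaros summit. The region 76 bp from the TSS of Def6 (chr17:28204715-28208688), a guanine nucleotide exchange factor gene of lymphocytes, overlapped a CHD4 region with percentiles of 31.6 and 24.4 at 0 h, 72.9 and 73.7 at 30 min, 66.1 and 78.4 at 1 h and 98.9 and 91.7 at 2 h. All 6 later ranks of this CHD4 region were above both 0 h ranks, whereas the peak over the Def6 summit itself was absent in 0 h replicate 1 and stood at percentile 42.4 of its list in 0 h replicate 2 and lower than that in 1 h replicate 1. Near Zfp36l2 (chr17:84179824-84183974), a gene of an mRNA decay factor, CHD4 was at 59.97 and 5.40 at 0 h and 93.4 and 88.6 at 2 h, with no CHD4 peak over the Ikaros summit in 0 h replicate 1 or 2 h replicate 1. Near Lclat1 (chr17:73272966-73274489) it was at 8.73 and 31.9 at 0 h and 92.5 and 89.9 at 2 h. The regions near Parvg (chr15:84312490-84316167) and Bfsp2 (chr9:103469545-103471841) had values of at most 28.3 at 0 h and at least 74.4 at 2 h.

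By the same rule, applied after the values were seen, the 5 largest decreases of CHD4 rank included regions near Irf8 and Serpinf1. At the region 10419 bp from the TSS of Irf8 (chr8:120724751-120726453), a transcription factor gene of B and myeloid cells, CHD4 was at 94.5 and 88.4 at 0 h, 22.6 and 42.0 at 30 min, 70.5 and 85.9 at 1 h and 23.0 and 14.0 at 2 h. At the Serpinf1 promoter it was at 84.2 and 86.3 at 0 h, 44.9 and 71.1 at 30 min, 26.7 and 39.1 at 1 h and 17.9 and 16.1 at 2 h. All later values were below both 0 h values at both regions. The other 3 were a region near Iscu (chr5:113775575-113778080), an iron-sulphur cluster scaffold gene, and 2 regions on chromosome Y.

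H3K27ac was present at nearly all of these regions throughout. It was called in all 8 lists at 2152 (93.4%), compared with 67.2% of all merged Ikaros regions and 88.8% of those in 7 of 8 lists, and in none at 28 (1.21%), compared with 12.4%. The share per library ran from 95.2% to 98.1%. H3K27ac was gained at 5 regions (0.217%, all merged regions 1.05%) and lost at 27 (1.17%, all merged regions 2.95%).

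H3K27ac ranked higher here than at other Ikaros regions. Over the 14715 regions acetylated in all 8 lists, the 2048 that overlapped an Ikaros region called in all 8 lists had a mean H3K27ac percentile of 71.5 and 70.9 at 0 h, 67.6 and 68.3 at 30 min, 66.5 and 66.4 at 1 h and 66.9 and 66.3 at 2 h. All 6 later values were below both 0 h values. The excess over other replicated Ikaros regions was 12.3 to 16.3 points, positive in 8 of 8 libraries, and its mean of 13.7 points passed the exact sign-flip permutation test (p = 0.00781, adjusted p = 0.00781). H3K27ac peaks were wider here than at the remaining regions, by a ratio of medians of 1.80 to 1.97, with no trend that passed the exact permutation test (rho = −0.146, adjusted p = 0.837). An H3K27ac region that overlapped any Ikaros region called in all 8 lists was counted here. A wider H3K27ac region thus had more chance to be counted here. The part of width in the higher rank was not tested, and the sign-flip p-value concerns the constancy of the sign over libraries.

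The lower excess at later times did not pass the adjustment over 11 trends. Against regions with no replicated Ikaros the 0 h libraries averaged 33.8 ± 0.828 points, the 30 min libraries 28.6 ± 0.443, the 1 h libraries 26.4 ± 0.213 and the 2 h libraries 26.5 ± 0.534 (each SD, n = 2). The trend had rho = −0.878 (exact permutation p = 0.0103, adjusted p = 0.0567) and r = −0.805 (p = 0.0242, adjusted p = 0.105), and r = −0.966 without the 2 h libraries. Against other replicated Ikaros regions the excess was 16.1 ± 0.204 points at 0 h and 12.6 ± 0.483 at 2 h (SD, n = 2), with the same rho and exact permutation p values and r = −0.770 (p = 0.0286, adjusted p = 0.105). Both passed with lists of equal size (exact permutation adjusted p = 0.0378), without 1 h replicate 1 (0.0349) and without 2 h replicate 1 (0.0175), and the adjusted p was 0.105 to 0.210 without any 1 of the 0 h or 30 min libraries. With all peaks of a list ranked, the trend against no Ikaros was near 0 (rho = −0.195, exact permutation adjusted p = 0.924) and that against other Ikaros regions passed (rho = −0.927, adjusted p = 0.0349). The trend against other Ikaros regions turned when these were restricted to regions called in both 0 h lists (rho = 0.586, exact permutation adjusted p = 0.337).

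Other Ikaros regions divided by their 0 h calls. Those called in both 0 h lists, and so missing from at least 1 later list, had a mean H3K27ac percentile of 56.4 at 0 h and 49.5 at 2 h (2245 regions), a change of −6.91 points. The regions called in all 8 lists had a change of −4.60 points. Other replicated regions not called in both 0 h lists went from 54.4 to 56.4 (4312 regions). A lower H3K27ac rank at 2 h was thus measured at both classes called at 0 h.

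**Figure D3:**
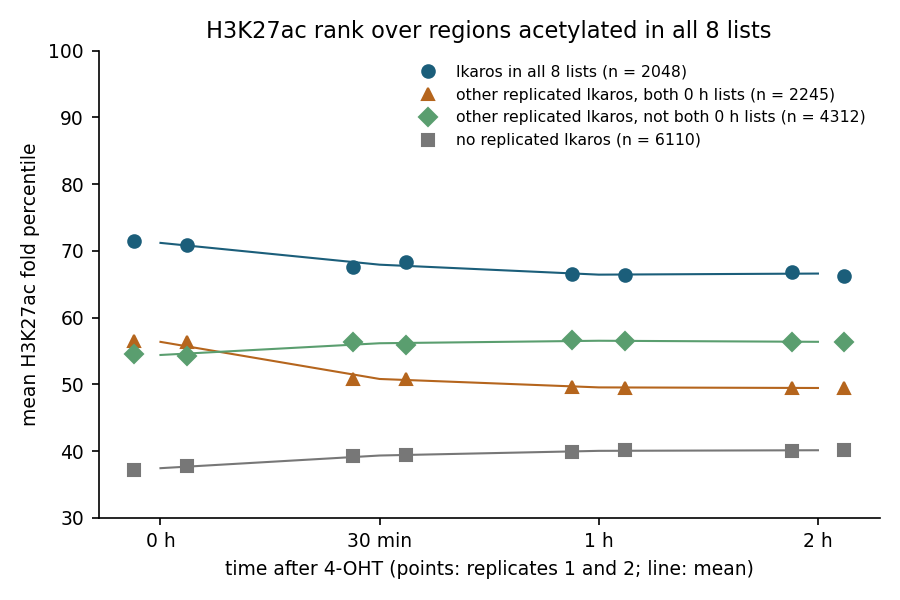
Mean percentile of the H3K27ac fold in each library over the regions acetylated in all 8 lists, by class of Ikaros region (points, replicates 1 and 2; lines, mean of the time). The vertical axis starts at 30. The regions with Ikaros in all 8 lists are highest throughout, and they and the other regions called in both 0 h lists are lower after 4-OHT.

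Region by region, the H3K27ac rank was lower in both 2 h than in both 0 h lists at 677 of 2048 (33.1%), compared with 23.1% of all 14715 regions, and higher at 315 (15.4%), compared with 23.8%. At other replicated Ikaros regions 25.2% were lower and 22.1% higher. The 2048 began at a mean percentile of 71.2 at 0 h, against 50 over all 14715, and regions of equal starting rank were not compared. Lower ranks were found at 35.0% of distal and 30.9% of promoter regions. Distal regions had a mean percentile of 70.1 at 0 h and 64.7 at 2 h, and promoter regions 72.4 and 68.7, and their difference had no trend that passed (rho = −0.244, exact permutation adjusted p = 0.716). Regions with CHD4 in at least 5 lists had 76.2 at 0 h and 71.3 at 2 h, and those with CHD4 in fewer lists 65.1 and 60.8. That difference did not pass either (rho = −0.244, exact permutation adjusted p = 0.716), and with lists of equal size it turned and passed (rho = 0.878, exact permutation adjusted p = 0.0378).

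The H3K27ac summit lay nearer to the Ikaros summit in the later libraries. The median distance was 334 and 350.5 bp at 0 h, 328 and 322 bp at 30 min, 284 and 286 bp at 1 h and 295.5 and 285 bp at 2 h, and all 6 later values were below both 0 h values. The trend had rho = −0.830 (exact permutation p = 0.0198, adjusted p = 0.0728) and r = −0.820 (p = 0.0127, adjusted p = 0.105), and so did not pass the adjustment, with r = −0.953 without the 2 h libraries. It passed without 1 h replicate 1 (exact permutation adjusted p = 0.0349) and without 2 h replicate 1 (0.0233).

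The 5 regions with the largest decrease of H3K27ac rank were chosen for it and have no test. Here and in the gene lists below, ranks are those of the shared H3K27ac region that each Ikaros region overlaps. Such an H3K27ac region can be wider than the window on the Ikaros summit and can hold several Ikaros regions, which then have the same values. The values are thus not the acetylation at the summit itself. At the promoter of Gfra2 (chr14:70889746-70891370), a neurturin co-receptor gene, the percentile was 95.0 and 95.3 at 0 h, 71.2 and 75.8 at 30 min, 41.4 and 40.8 at 1 h and 36.5 and 42.1 at 2 h. In an intron of Gas6 (chr8:13489834-13491441), the ligand gene of the TAM receptor kinases, it was 98.0 and 99.0 at 0 h, 51.9 and 57.6 at 30 min, 41.1 and 55.8 at 1 h and 46.8 and 14.4 at 2 h. Both were lower by 30 min than in either 0 h library. Near Ski (chr4:155234163-155237604), a corepressor gene of TGF-beta signalling, the values were 87.8 and 69.7 at 0 h and 20.5 and 3.80 at 2 h. In Nrxn2 (chr19:6503614-6505186) they were 74.5 and 74.96 at 0 h and 13.7 and 4.64 at 2 h, and near St3gal5 (chr6:72050535-72052770), a ganglioside synthesis gene, 92.7 and 93.4 at 0 h and 35.9 and 34.9 at 2 h. The 0 h and 2 h values did not overlap at any of the 5.

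The largest increases were near Tnfaip8, in Babam2 (chr5:31810435-31811828), near 4930426L09Rik (chr2:19004421-19005600), in Antxr2 (chr5:97885204-97886163) and in Srgap3 (chr6:112852130-112853188). In the intron of Srgap3 the H3K27ac percentile was 41.0 and 35.8 at 0 h, 79.3 and 75.1 at 30 min, 75.7 and 78.6 at 1 h and 84.8 and 77.6 at 2 h. Its Ikaros percentile was 83.6 and 4.65 at 0 h and 98.5 and 99.0 at 2 h. All later H3K27ac values were above both 0 h values there, while the 0 h Ikaros values stood far apart.

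Genes near the selected regions were counted by list. Of 21951 protein-coding genes, 2589 (11.8%) had such a region within 20 kb of a TSS. The share was 61.1% of 18 of the fast-repressed genes that the study's text names, 61.1% of 18 genes of pre-B and B cell receptor signalling, 57.7% of 26 B-lineage transcription factors and 53.8% of 13 genes of the IL-7 receptor and STAT5 pathway. It was 40% of 15 adhesion and migration genes, 33.3% of 9 V(D)J recombination genes, 30.8% of 13 NuRD subunit genes and 29.4% of 17 G1 cell cycle genes. Only another Ikaros region was found for a further 4 of the fast-repressed genes, 6 of the signalling genes and 9 of the B-lineage transcription factors. The 11.8% covers all protein-coding genes, active in these cells or not, and the share among active genes was not measured. The study defined fast-repressed genes by transcription in the same cell system and named several of the 18 for a loss of H3K27ac at super-enhancers in these libraries, so their H3K27ac values are no independent evidence of a direction.

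At the fast-repressed genes the H3K27ac rank was lower in both 2 h than in both 0 h lists at 11 of 12 acetylated regions and higher at none, with a median change of −17.8 points. Over all 2048 acetylated regions with Ikaros in all 8 lists, 33.1% were lower and 15.4% higher, which is the background for this and the other lists. The lower regions at Itga5, Igll1 and Vpreb1, Bcl11a, Myc and Dntt are counted again in the lists below that hold these genes, where they are no independent evidence either. One acetylated region spanned Igll1 and Vpreb1, which encode the surrogate light chain of the pre-B cell receptor. Its strongest Ikaros region (chr16:16862504-16866549, 238 bp from the Igll1 TSS) had a mean Ikaros percentile of 90.5 and CHD4 in all 8 lists, and H3K27ac stood at 99.9 and 96.8 at 0 h and 90.7 and 92.5 at 2 h. At the region 15197 bp from the Endod1 TSS (chr9:14364455-14367148) H3K27ac stood at 96.8 and 99.8 at 0 h and 89.3 and 84.3 at 2 h. At the promoter of Serpinf1 (chr11:75413963-75416757), which encodes the secreted protein PEDF, it was 97.9 and 91.9 at 0 h, 60.2 and 78.4 at 30 min, 57.9 and 22.6 at 1 h and 53.6 and 58.7 at 2 h. All 6 later Serpinf1 values were below both 0 h values.

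**Figure D4:**
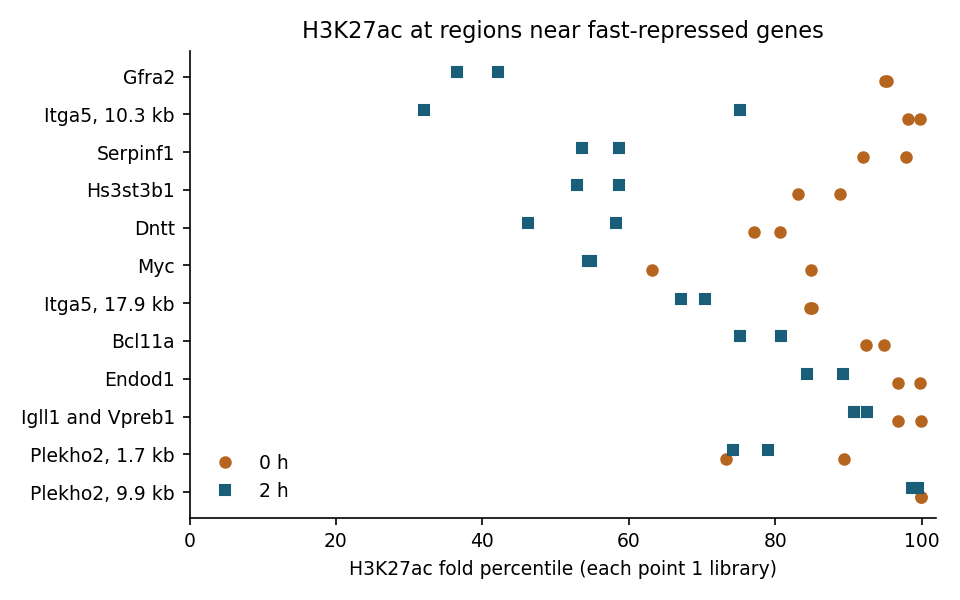
H3K27ac fold percentile in each 0 h (circles) and 2 h (squares) library at the 12 acetylated regions that overlap an Ikaros region called in all 8 lists within 20 kb of a fast-repressed gene. Where a gene has 2 such regions the distance to its TSS is given. The 2 h values lie below the 0 h values at 11 of the 12, and overlap them at the Plekho2 region nearer to its TSS.

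Pre-B and B cell receptor signalling genes had 5 of 14 acetylated regions lower at 2 h and 3 higher, near the background of 33.1% and 15.4%. The region 13113 bp from the TSS of Cd79a (chr7:24883911-24885084), the gene of the Ig-alpha signalling chain, had a mean Ikaros percentile of 98.6, CHD4 in 1 list and H3K27ac at 98.1 and 97.6 at 0 h and 88.6 and 96.0 at 2 h. At Pik3cd (chr4:149701720-149703484), the gene of the p110-delta kinase subunit, it was 95.5 and 97.5 at 0 h and 87.9 and 95.8 at 2 h. At Syk (chr13:52584319-52585485), a kinase of the pre-B cell receptor, it was 71.9 and 57.0 at 0 h and 82.8 and 90.1 at 2 h. The times overlapped at Pik3cd, and the Cd79a region was lower and Syk higher at 2 h.

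B-lineage transcription factors had 9 of 20 acetylated regions lower at 2 h and 3 higher, against 33.1% and 15.4% over all 2048. Near Lef1 (chr3:131105507-131108711), a factor of Wnt signalling, H3K27ac was at 90.4 and 92.0 at 0 h, 64.4 and 56.5 at 30 min, 55.6 and 68.8 at 1 h and 29.1 and 49.4 at 2 h. At Runx1 (chr16:92695591-92698948) it was at 85.6 and 87.8 at 0 h and 71.7 and 36.1 at 2 h. Near Ets1 (chr9:32705365-32706564) it was at 52.7 and 31.4 at 0 h, 82.9 and 91.7 at 30 min, 70.9 and 55.5 at 1 h and 80.9 and 79.3 at 2 h. Lef1 and Runx1 were lower and Ets1 higher at 2 h, with mean Ikaros percentiles of 92.4, 90.9 and 91.6 and CHD4 in all 8 lists at each.

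The IL-7 receptor and STAT5 pathway had 3 of 7 acetylated regions lower and 1 higher, against the same 33.1% and 15.4%. The region near Stat5a and Stat5b (chr11:100842642-100843779), the genes of the pathway's transcription factors, had a mean Ikaros percentile of 96.6 and CHD4 in all 8 lists, with H3K27ac called over the summit in 7 lists and ranked at 27.05 and 0.700 at 0 h and 21.5 and 20.4 at 2 h. At the promoter of Socs2 (chr10:95414218-95419396), a feedback inhibitor gene, H3K27ac was at 60.6 and 73.6 at 0 h and 32.6 and 42.7 at 2 h. At Myc (chr15:61984694-61987281) it was at 63.2 and 84.9 at 0 h and 54.8 and 54.4 at 2 h. The Stat5 values overlapped, and those of Socs2 and Myc were lower at 2 h.

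Adhesion and migration genes had 6 of 8 acetylated regions lower and 1 higher, against 33.1% and 15.4% over all 2048. Of the 6 lower ones, 2 were at Itga5, which is also on the fast-repressed list. The higher one was at the promoter of Vcl (chr14:20928561-20930589), which encodes vinculin, with 40.3 and 42.3 at 0 h and 50.9 and 52.3 at 2 h. The region 16842 bp from the TSS of Pxn (chr5:115489372-115490994), the paxillin gene, had 98.3 and 98.8 at 0 h and 83.8 and 96.6 at 2 h.

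The small lists hold few regions to set against that background of 33.1% and 15.4%. G1 cell cycle genes had 1 of 6 acetylated regions lower and 1 higher, V(D)J recombination genes 2 of 3 lower and NuRD subunit genes 1 of 5 lower. Near E2f2 (chr4:136176933-136178962), a gene of an S phase transcription factor, H3K27ac was at 93.7 and 96.1 at 0 h and 98.8 and 86.9 at 2 h. At the region 16619 bp from the TSS of Ccnd3 (chr17:47521405-47524014), the cyclin D3 gene, it was at 86.5 and 88.5 at 0 h and 89.3 and 88.3 at 2 h. Both overlapped between times. The list's higher and lower regions were also at Ccnd3, with 67.8 and 70.4 at 0 h and 91.5 and 89.5 at 2 h at the one 2894 bp from a TSS (chr17:47507389-47509549), and 83.1 and 85.2 at 0 h and 69.9 and 63.7 at 2 h at the one 601 bp from a TSS (chr17:47592813-47596166). The region in Cdkn2a (chr4:89284714-89285959), a cell cycle inhibitor locus, had a mean Ikaros percentile of 83.9 and H3K27ac in no list. At the promoter of Xrcc6 (chr15:82015725-82017024), which encodes the end-joining protein Ku70, H3K27ac was at 60.03 and 63.5 at 0 h and 55.7 and 47.5 at 2 h. Near Chd3 (chr11:69365847-69367727) H3K27ac was at 68.6 and 83.8 at 0 h and 59.0 and 72.7 at 2 h, and near Chd4 (chr6:125089521-125092909) at 86.4 and 89.6 and at 74.8 and 87.6, so that Xrcc6 was lower at 2 h and the Chd3 and Chd4 regions overlapped.

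Features varied in a graded way with the number of Ikaros lists. CHD4 in both 2 h lists was found at 3.12% of regions called in 1 list, 23.0% of those in 7 and 39.6% of those in 8. H3K27ac in all 8 lists was found at 50.2% of regions called in 1 list, 88.8% of those in 7 and 93.4% of those in 8. The promoter share was 36.6% at 1 list, 51.8% at 6 and 45.0% at 8. Median region width was 315 bp at 1 list and 1593 bp at 8, and the part of width in these shares was not tested.

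**Figure D5:**
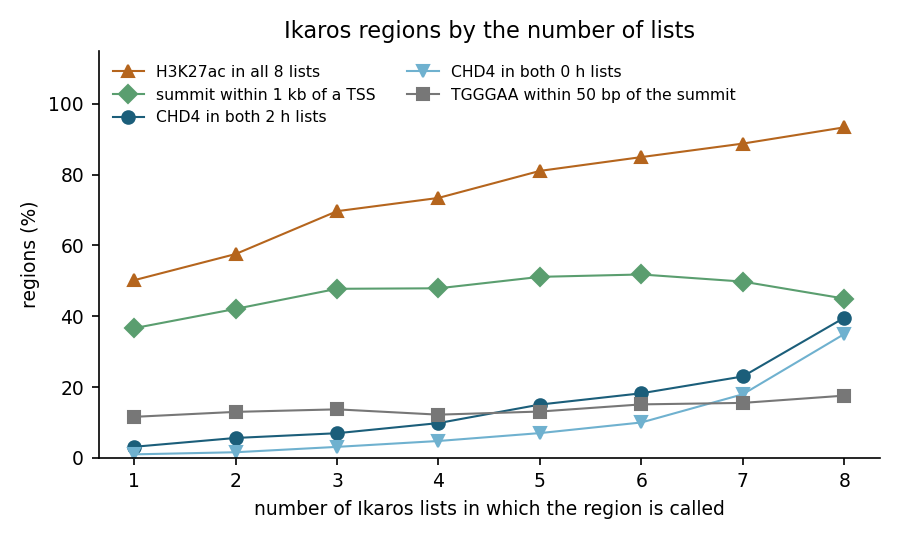
Percentage of merged Ikaros regions with each feature, by the number of the 8 Ikaros lists in which the region was called. H3K27ac and CHD4 are most frequent at 8 lists, whereas the share within 1 kb of a TSS is highest at 6 lists, with 51.8%.

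Core words were denser at the summit than beside it. The core words together numbered 3.92 per 100 bp within 50 bp of the summit of the 2305 regions and 2.51 per 100 bp in flanks 400 to 500 bp away. At regions in 7 of 8 lists they numbered 3.89 and 2.28, close to these, and at other replicated regions 3.41 and 2.19. The Ikaros word TGGGAA, which holds GGGA and GGAA, was in 17.6% of summit windows of the 2305 regions, 15.5% of those of regions in 7 of 8 lists and 13.3% of those of all merged regions, and the control word AAGGGT, of the same letters, in 4.73%, 4.66% and 4.61%. In a single flank of the same 100 bp, as the mean of both sides, TGGGAA was in 10.2% at the 2305 regions and 9.06% at regions in 7 of 8 lists, and AAGGGT in 4.84% and 4.85%. All words were sought on both strands, and GC content of the 500 bp was 53.7% against 51.5% over all merged regions. Among the 2305, TGGGAA was in 20.1% of promoter and 15.5% of distal windows, and the GC box GGGCGG in 21.5% and 5.91%. The RUNX word TGTGGT was in 7.14% of promoter and 14.4% of distal windows (all merged regions 10.0%), and the E-box CAGCTG in 8.39% and 13.9% (all merged regions 8.98%). TCCC followed 2 bases later by GGGA, a palindrome bound by EBF1, was in 3.08% of windows, compared with 1.88% over all merged regions.

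The regions also differed among themselves in Ikaros order. Ranked within the 2305, the Ikaros fold was higher in both 2 h than in both 0 h lists at 590 regions (25.6%). It was lower at 552 (23.9%) and neither at 1163 (50.5%). CHD4 was called in both 0 h lists at 33.9% of the 590 and in both 2 h lists at 52.7%, and at 43.5% and 26.1% of the 552. At the 1163 the CHD4 shares were 31.5% and 39.3%. The mean H3K27ac percentile was 73.6 at 0 h and 73.3 at 2 h at the 590, and 71.2 and 61.9 at the 552. It was 72.1 and 67.5 at the 1163, and 72.3 and 67.7 over all 2305 regions where it was measured. TGGGAA was in 13.9% of the summit windows of the 590 and 21.6% of those of the 552. Across 2185 regions Spearman's rho between the changes of Ikaros and H3K27ac rank was 0.229, and across 532 regions that between Ikaros and CHD4 rank was 0.267. The regions share libraries and chromatin, so these values are descriptions.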

How the data were processed

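The authors aligned paired reads to mm10 with Bowtie2 2.4.2, marked duplicates with Picard 2.23.7 and called peaks with MACS2 2.2.7.1, narrow for Ikaros and H3K27ac and broad for CHD4 (versions from the submitters' processing notes). The methods describe 0 h, 1 h and 2 h. For 30 min, and for which libraries were sonicated or digested with MNase, details are not given in the sources used here. The 24 deposited lists, 1 per library, hold position, a display score, fold enrichment (a ratio), −log10 p-values, −log10 q-values and, in narrow lists, the summit. The 8 input libraries were not analysed here.

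Python 3.11.15 with numpy 2.4.6, pandas 2.3.3 and scipy 1.17.1 was used, and the code was tested on simulated data. CHD4 and H3K27ac peaks had to overlap the 500 bp around the median Ikaros summit by 1 bp. Coverage was recovered from fold and −log10 p of peaks with −log10 p under 40, where 100% of pileups were whole within 0.05 fragments. Genes were from GENCODE M21. Trends used all 40320 pairings and levels all 256 sign patterns, two-sided, with Benjamini-Hochberg adjustment over 11 and 3 results. Regions named were the 8 of highest mean Ikaros rank, the 5 of largest decrease and increase of H3K27ac rank and of largest increase of CHD4 rank (same sign in both replicates), and in each gene list the genes with the regions of highest Ikaros rank. The largest decreases of CHD4 rank were added after the values were seen. Members and lists were chosen with earlier results of these data known. Alternatives were an Ikaros −log10 q of at least 3, an overlap of 50%, the whole merged region, lists of equal size, all peaks ranked, other regions called at 0 h, promoters within 3 kb, the replicate block and leaving out each library.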

Additional observations from a re-analysis of the deposited data

How the results depend on the processing

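The 3 levels kept their direction and their side of the threshold under all alternatives run. Of 93 values of 14 results with no library left out, 85 did not reverse and kept their side of the threshold. That count includes the CHD4 rank difference with all peaks ranked, whose rho of 0 has no direction. With lists of equal size the trends of H3K27ac rank against no Ikaros and against other Ikaros regions passed (rho = −0.878 each), H3K27ac rank by CHD4 reversed (0.878) and so did the CHD4 share (−0.488). With all peaks ranked, H3K27ac rank against other Ikaros regions passed (−0.927), while that against no Ikaros was −0.195 (exact permutation adjusted p = 0.924) and the CHD4 rank difference was 0. The CHD4 share difference reversed with an overlap of 50% (0.0488) and, like H3K27ac rank against other Ikaros regions, with other regions called at 0 h (0.586 each). The cause was not tested. Chosen after seeing the data, leaving out repeat-masked regions changed no call, and leaving out the 30 min libraries gave rho = −0.717 for both H3K27ac ranks (exact permutation adjusted p = 0.587).

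With 1 library left out, rho ranged from 0.0184 to 0.606 for the CHD4 share (without 0 h and 2 h replicate 1), from 0.275 to 0.899 for CHD4 width (without 2 h and 0 h replicate 2), from −0.661 to −0.330 for the CHD4 rank difference (without either 0 h replicate and without 2 h replicate 1), from 0.385 to 0.826 for CHD4 centre distance (without either 2 h replicate and without 0 h replicate 2), from −0.973 to −0.826 for H3K27ac rank against no Ikaros and against other Ikaros regions and from −0.918 to −0.753 for H3K27ac summit distance, which passed without 1 h replicate 1 or 2 h replicate 1. It ranged from −0.330 to 0.385 for the CHD4 share difference (turned without 2 h replicate 1), from −0.551 to 0.110 for H3K27ac distal minus promoter and from −0.587 to 0.110 for H3K27ac by CHD4 (both turned without 0 h replicate 1), and from −0.624 to 0.0367 for the H3K27ac width ratio (turned without either 0 h replicate or 2 h replicate 2).

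The labels do not say whether a replicate number is shared across times. Replicate 1 was above replicate 2 at 0 of 4 times for CHD4 width and at 4 of 4 for H3K27ac rank by CHD4. With the replicate block rho was −0.900 for both H3K27ac ranks and the summit distance (exact permutation adjusted p = 0.0891), and it changed no call. The shortest Ikaros list, 30 min replicate 2, had the lowest coverage, but 0 h replicate 1 had the highest coverage and the next shortest list, and the part of depth in the selection was not tested. CHD4 depth is unknown.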

Other observations

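The ratio of promoter to distal CHD4 share at the regions called in all 8 Ikaros lists was noticed after the data were seen, so its p-values are descriptive. The 0 h libraries averaged 0.483 ± 0.109, the 30 min libraries 0.603 ± 0.0685, the 1 h libraries 0.709 ± 0.0713 and the 2 h libraries 0.767 ± 0.0571 (each SD, n = 2). Over the 8 libraries rho with time was 0.878 (exact permutation p = 0.0103) and r was 0.840 (p = 0.00873), and r was 0.836 without the 2 libraries farthest from the median time. With CHD4 lists of equal size rho was 0.927 (exact permutation p = 0.00317). Other replicated Ikaros regions had the same rho of 0.878 (exact permutation p = 0.0103), and the ratio between the classes had no trend that passed (rho = −0.488, exact permutation p = 0.247). The ratio was therefore not shown to differ between the regions called in all 8 lists and other Ikaros regions.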
